A study of Mus musculus with 8 samples.

Results

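The genes described here encode the nuclear subunits of the mitochondrial respiratory chain and of ATP synthase, with some factors that assemble them. They were chosen by symbol: every gene listed in the deposited expression matrix whose name starts with Nduf, Sdha, Sdhb, Sdhc, Sdhd, Uqcr or Atp5, or with Cox followed by a digit from 4 to 8. This gave 96 of 18790 named genes. They were 36 genes of complex I, 4 of complex II, 8 of complex III, 20 of complex IV, 16 of complex V and 12 assembly factors. Ndufa4 and its relative Ndufa4l2 were counted with complex IV, of which Ndufa4 is a subunit, and Atp5sl with the assembly factors of complex I.

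RNA was measured in 2 sorted populations of femoral bone marrow cells from untreated C57BL/6 mice that carry the Csf1r-EGFP transgene, a green fluorescent reporter driven by the promoter of a macrophage growth factor receptor. The CD11b+ population was F4/80+, VCAM1+, Ly6G- and low for the reporter, and the CD11b- population was F4/80+, VCAM1+ and reporter positive. F4/80 and VCAM1 are surface proteins of resident macrophages and CD11b is a myeloid integrin. Each population had 4 biological replicates, sequenced from SmartSeq2 libraries, which do not keep the strand. The series title raises the question of whether these sorts hold cells other than macrophages that carry macrophage fragments.

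Complexes I and II pass electrons from NADH and succinate to coenzyme Q, complex III passes them on to cytochrome c, and complex IV reduces oxygen. Complexes I, III and IV pump protons out of the mitochondrial matrix, and complex V, the ATP synthase, uses their return to make ATP. Red cell precursors depend on mitochondria for heme and iron-sulfur cluster synthesis and lose them as they mature, while neutrophils are known for few mitochondria and a reliance on glycolysis. A few subunits exist as tissue-type isoforms encoded by separate genes, of which the heart and skeletal muscle forms of complex IV are the best known.

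Library totals over named genes were 36517568 to 47844998 counts in CD11b+ and 27337092 to 34996595 in CD11b-. At these depths 3 counts, taken as the limit that a count of 0 allows, correspond to 0.0627 to 0.11 CPM, which covers counting error only; CPM is the count of a gene scaled to its library's total. Markers of several cell types differed between the populations. Summed neutrophil markers were at 66949 to 94069 CPM across CD11b+ libraries and 140 to 717 in CD11b-, with 7 of 9 called higher. Summed erythroid markers were at 730 to 1168 CPM across CD11b+ libraries and 29178 to 40166 in CD11b-, with 10 of 10 called lower, and cell cycle genes at 3985 to 4250 and 11473 to 15021 CPM, with 8 of 8 called lower. Primary granule markers of immature myeloid cells, Mpo among them, were at 56835 to 83636 CPM across CD11b+ libraries and 466 to 6735 in CD11b-, with 4 of 4 called higher. Eosinophil markers (3 of 5 called higher) and B progenitor markers (5 of 5 tested called lower) differed as well. Of 10 resident macrophage markers 4 were called higher and 2 lower, and the defining genes Adgre1, Vcam1 and Csf1r were above 0 in all 8 libraries. The part of these cell type differences in the values below was not tested, and in such bulk samples fewer cells of a type and less RNA per cell cannot be told apart.

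Most respiratory chain and ATP synthase genes were expressed at moderate levels in both populations and differed little between them. Genes were tested with edgeR's quasi-likelihood test over all 11965 genes that passed its filter on low counts, and called at a Benjamini-Hochberg adjusted p under 0.05. Of the 96 genes 91 were tested, 8 were called higher in CD11b+, 13 were called lower and 70 were not called. The 5 that were not tested, Cox4i2, Cox7b2, Cox8b, Cox8c and Ndufa4l2, were at or near 0 in all 8 libraries. The called share was 8.79% higher and 14.3% lower, beside 14.6% and 15% of all tested genes. Either way 21 of the 91 were called, beside 29.7% of all tested genes. A called difference of at least 2-fold was found in 3 of the 91, Ndufv3, Ndufb9 and Atp5s, beside 23.8% of all tested genes. The median log2 fold change (CD11b+ over CD11b-) was -0.19 over the 91 and -0.01 over all tested genes, and the median size of the change regardless of sign was 0.35 and 0.84. The 4 CD11b+ libraries all lay above the 4 CD11b- libraries for 9 of the 91 genes and all below for 21, beside 18.1% and 18.4% of all tested genes. With library totals taken without the 20 most abundant genes, which moved the median of all tested genes by 0.11, the split of calls was 12 higher and 7 lower. The 13 genes called lower became 7 without CD11b+ replicate 1 and 6 without CD11b+ replicate 2, and the 8 called higher became 5 when replicate 3 or 4 of CD11b+, or replicate 1 of CD11b-, was left out. DESeq2 called 12 higher and 20 lower.

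**Figure D1:**
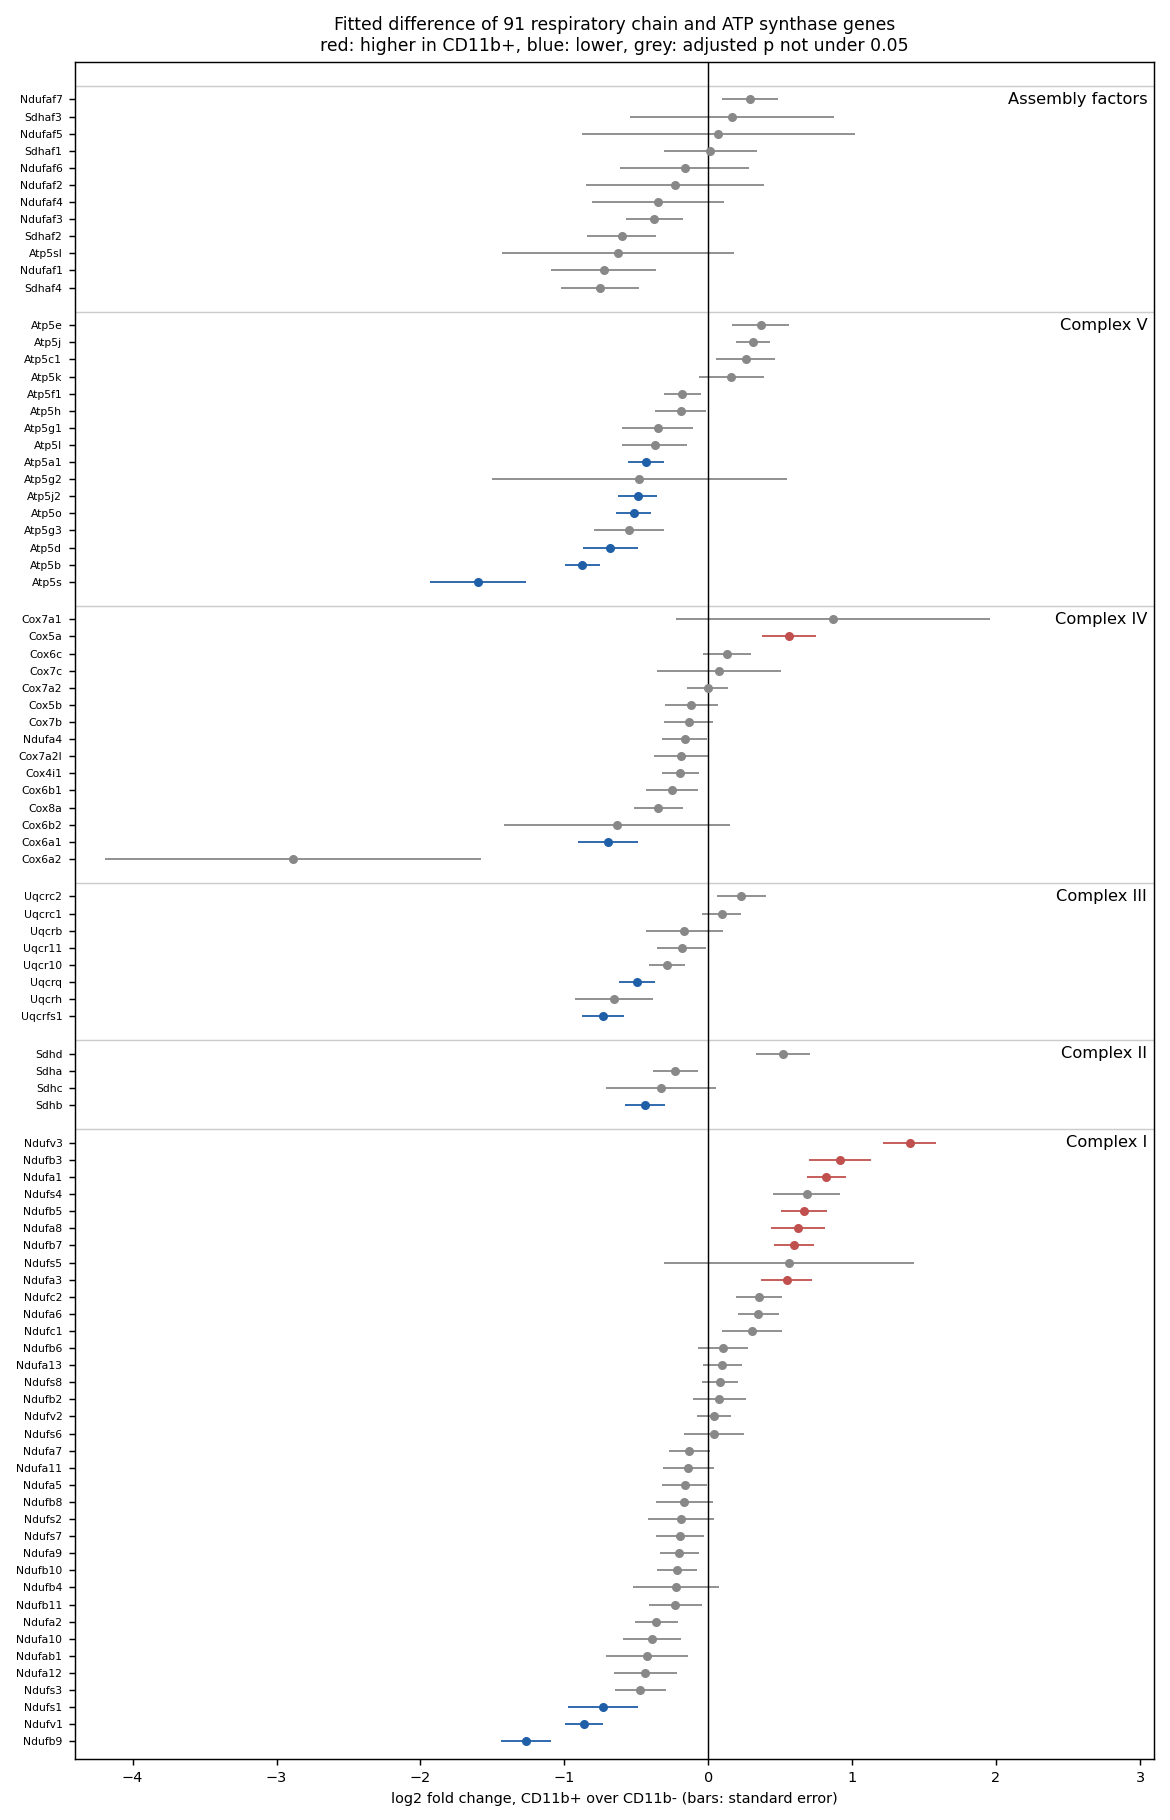
Fitted log2 fold change (CD11b+ over CD11b-, horizontal axis, bars: standard error) of the 91 tested genes, grouped by complex and ordered by size. Calls toward CD11b+ (red) lie almost all in complex I, 7 of 8, which holds 36 of the 91 genes. The 16 complex V genes hold 6 calls toward CD11b- (blue) and 0 toward CD11b+. Of all tested genes 14.6% were called higher and 15% lower in CD11b+.

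Summed over all 96 genes, the level was 11812 ± 1257 CPM across CD11b+ libraries and 13514 ± 815 CPM across CD11b- libraries (SD, n = 4). The genes thus took 1.06% to 1.36% of the counts of a CD11b+ library and 1.26% to 1.46% of those of a CD11b- library, and the groups overlapped. The complexes differed in this sum. Complex V stood at 2553 ± 231 CPM across CD11b+ libraries and 3371 ± 169 CPM across CD11b- libraries, a ratio of 0.76, and its groups did not overlap, since the highest CD11b+ library had 2843 CPM and the lowest CD11b- library 3211 CPM. Taken as the median over subunits of log2(CPM + 1) in place of the sum, the complex V difference was smaller, log2 -0.17 beside -0.40. The assembly factors did not overlap either, at 261 ± 18.1 and 335 ± 31.8 CPM. Complex I stood at 4583 ± 517 and 4844 ± 287 CPM, complex II at 778 ± 97 and 944 ± 124 CPM, complex III at 1897 ± 257 and 2057 ± 75.6 CPM and complex IV at 1738 ± 161 and 1963 ± 217 CPM, all with overlapping groups. Within CD11b+, replicate 4 had the highest value of its group in 63 of the 91 tested genes, and within CD11b-, replicate 4 had it in 45. The spread between replicates was small for these genes: the median coefficient of variation was 16.7% in CD11b+ and 16.4% in CD11b-, beside 29.0% and 40.6% over all tested genes, which had a lower median level (23.3 CPM beside 84.9 CPM).

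**Figure D2:**
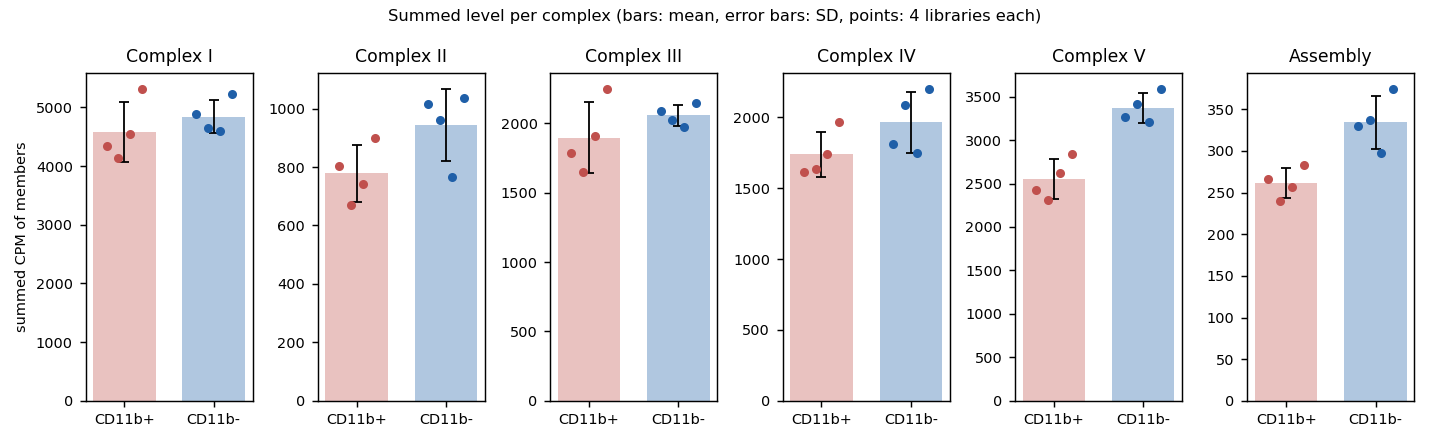
Summed CPM of the listed genes of each complex per library (points), with group mean (bars) and SD (error bars), n = 4 per population; each panel has its own vertical axis from 0. The CD11b+ and CD11b- libraries are apart in complex V and in the assembly factors and overlap in complexes I to IV.

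Complex I, the NADH dehydrogenase, had calls in both directions. Of its 36 genes, all tested, 7 were called higher in CD11b+ and 3 lower. That is 19.4% and 8.33%, beside 14.6% and 15% of all tested genes. The median log2 fold change was -0.05 and ranged from -0.17 to 0.06 over the alternative settings, so it changed sign. The 7 core subunits that carry electrons held 0 genes called higher and 2 called lower (Ndufv1 and Ndufs1), and the 29 accessory subunits 7 higher and 1 lower. By position, the peripheral arm that oxidizes NADH had 1 higher and 2 lower of 16, and the membrane arm 6 higher and 1 lower of 19. Whether these classes differ from each other was not tested. Without the CD11b- pair of libraries highest in the primary granule gene Mpo, 4 complex I genes were called higher and 3 lower.

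Ndufv3 encodes an accessory subunit bound beside the flavoprotein of the peripheral arm. It was at 139, 148, 126 and 174 CPM in the CD11b+ libraries and at 54.0, 72.4, 41.4 and 62.0 CPM in the CD11b- libraries. Every CD11b+ library lay above every CD11b- library, with a fitted difference of 2.64-fold (log2 1.40, SE 0.19, edgeR adjusted p = 0.00034), the largest of the 8 genes called higher. Ndufb3, an accessory subunit of the membrane arm, was at 52.1, 63.3, 57.8 and 86.3 CPM across CD11b+ libraries and at 34.6, 33.2, 30.9 and 43.1 CPM across CD11b- libraries. The groups did not overlap, and the difference was 1.88-fold (log2 0.91, SE 0.21, edgeR adjusted p = 0.00952), but the call was lost without the CD11b- pair highest in Mpo (edgeR adjusted p = 0.0655). Ndufa1, a small membrane arm subunit, was at 114, 110, 132 and 127 CPM across CD11b+ libraries and at 77.7, 67.6, 62.5 and 74.0 CPM across CD11b- libraries. The replicates of each population lay close together and apart from the other population, at 1.77-fold (log2 0.82, SE 0.14, edgeR adjusted p = 0.00127).

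Ndufb7, a subunit on the intermembrane-space side, had the highest level per length of the complex I genes as the mean of both populations. It was at 612 CPM per kb of transcript in CD11b+ and 416 in CD11b-, where Ndufb8 was higher, at 479. The Ndufb7 libraries were at 400, 385, 377 and 364 CPM across CD11b+ libraries and at 317, 229, 257 and 234 CPM across CD11b- libraries, which did not overlap. The fitted difference was 1.51-fold (log2 0.60, SE 0.14, edgeR adjusted p = 0.00951). The remaining complex I genes called higher were the membrane arm subunits Ndufb5, Ndufa8 and Ndufa3, at 1.46-fold to 1.58-fold (edgeR adjusted p from 0.0106 to 0.0414). Of these Ndufa8 and Ndufa3 had overlapping groups, and Ndufb5 shares 12.3% of its exon bases with Mrpl47, a gene of the mitochondrial ribosome, so that unstranded reads there cannot be told apart. The Ndufa8 call was lost in 7 of 16 alternative settings, among them without CD11b+ replicate 2, 3 or 4 or CD11b- replicate 1, 2 or 3 (edgeR adjusted p from 0.0527 to 0.0794), and the Ndufa3 call lost in 10 of 16 alternative settings, among them without CD11b+ replicate 2, 3 or 4 or CD11b- replicate 1, 2 or 3 (edgeR adjusted p from 0.0589 to 0.107). Without the CD11b- pair highest in Mpo the Ndufb5 call was lost too (edgeR adjusted p = 0.0697).

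The 3 complex I genes called lower in CD11b+ were Ndufb9, Ndufv1 and Ndufs1. Ndufb9, a membrane arm subunit of the LYR-motif family, was at 129, 107, 130 and 173 CPM across CD11b+ libraries and at 352, 273, 335 and 371 CPM across CD11b- libraries. Its highest CD11b+ library thus lay well below its lowest CD11b- library, and the fitted difference was 2.41-fold (log2 -1.27, SE 0.17, edgeR adjusted p = 0.000373). In the annotation used here 19.5% of its exon bases overlap another gene model, Gm49356. Ndufv1 encodes the flavoprotein that binds FMN and takes the electrons of NADH, next to which Ndufv3 sits. It was at 188, 188, 203 and 230 CPM across CD11b+ libraries and at 338, 406, 382 and 380 CPM across CD11b- libraries. The 2 populations did not overlap, at 1.82-fold (log2 -0.86, SE 0.13, edgeR adjusted p = 0.000821), a direction opposite to that of Ndufv3. Ndufs1, the largest of the iron-sulfur subunits, was at 82.2, 65.4, 118 and 100 CPM across CD11b+ libraries and at 153, 115, 133 and 226 CPM across CD11b- libraries. CD11b- replicate 2 lay below the highest CD11b+ library, and the call (log2 -0.73, SE 0.24, edgeR adjusted p = 0.0466) was lost in 8 of 16 alternative settings, among them without CD11b+ replicate 1, 2 or 4 or CD11b- replicate 1, 3 or 4 (edgeR adjusted p from 0.0704 to 0.125). The 26 complex I genes that were not called had log2 fold changes between -0.47 and 0.68.

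**Figure D3:**
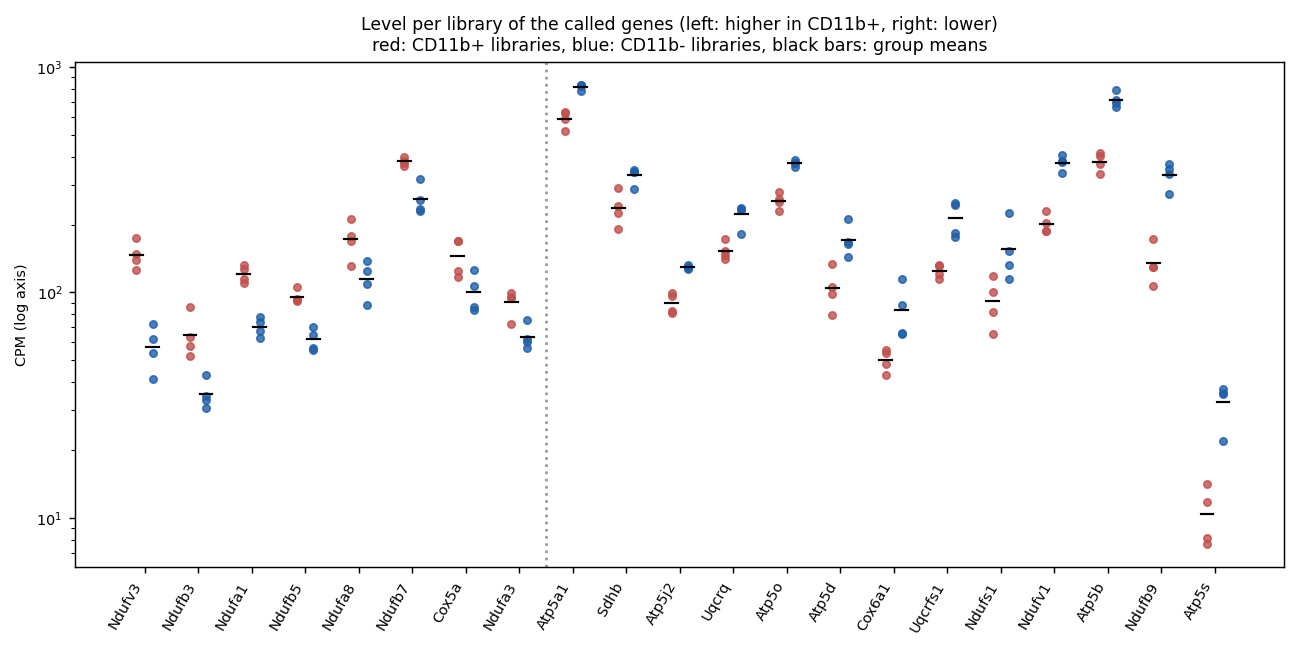
CPM per library (log axis) of the 21 called genes, those higher in CD11b+ to the left of the dotted line and those lower to the right (red: CD11b+ libraries, blue: CD11b- libraries, black bars: group means). Ndufv3 (left) and Atp5s (far right) have the largest fitted fold on either side, and the groups of Ndufa8, Ndufa3, Cox5a, Sdhb and Ndufs1 overlap.

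Among the 4 subunits of complex II, succinate dehydrogenase, edgeR called Sdhb lower in CD11b+ and did not call the others. Sdhb, the iron-sulfur subunit and the most abundant of the 4 per length (208 and 290 CPM per kb), was at 243, 191, 225 and 290 CPM across CD11b+ libraries and at 350, 341, 289 and 343 CPM across CD11b- libraries. CD11b+ replicate 4 and CD11b- replicate 3 met at about the same level, and the 1.36-fold difference (log2 -0.44, SE 0.14, edgeR adjusted p = 0.0417) was close to the threshold. The call was lost in 11 of 16 alternative settings, among them without CD11b+ replicate 1, 2 or 3 or CD11b- replicate 1, 2, 3 or 4 (edgeR adjusted p from 0.0602 to 0.121). The membrane anchor Sdhd had a difference of the other sign without a call, at 75.8 to 108 CPM across CD11b+ libraries and 55.7 to 71.1 CPM across CD11b- libraries (log2 0.52, SE 0.19, edgeR adjusted p = 0.0688), although its groups did not overlap. Sdhd was called higher with DESeq2 (adjusted p = 0.0409), with totals without the 20 most abundant genes (edgeR adjusted p = 0.0257) and without CD11b- replicate 3 (edgeR adjusted p = 0.0409).

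In complex III, 2 of 8 genes were called lower in CD11b+ and 0 higher, beside 15% and 14.6% of all tested genes. Uqcrfs1, the Rieske iron-sulfur protein that hands electrons to cytochrome c1, was at 121, 115, 133 and 132 CPM across CD11b+ libraries and at 184, 245, 177 and 249 CPM across CD11b- libraries. All CD11b+ libraries were below all CD11b- libraries, at 1.66-fold (log2 -0.73, SE 0.15, edgeR adjusted p = 0.00412). Uqcrq, a small subunit of the complex, was at 152, 146, 141 and 173 CPM across CD11b+ libraries and at 233, 237, 182 and 235 CPM across CD11b- libraries. CD11b- replicate 3 stood apart from its group but still above every CD11b+ library, and the difference was 1.41-fold (log2 -0.49, SE 0.12, edgeR adjusted p = 0.0141). The call was lost in 4 of 16 alternative settings, among them without CD11b+ replicate 2 or 3 (edgeR adjusted p from 0.05 to 0.0578). As the mean of both populations, the core protein gene Uqcrc1 had the highest level per length of all 91 tested genes. It was at 702 CPM per kb in CD11b+ and 675 in CD11b-, where Cox4i1 was higher, at 704. The rank of Uqcrc1 by that mean holds for the transcript lengths used here. With merged exon lengths Cox8a stood above it, at 340 beside 275 CPM per kb as the mean of both populations. The Uqcrc1 libraries overlapped, at 1106, 978, 1188 and 1370 CPM across CD11b+ libraries and at 1153, 1072, 1124 and 1115 CPM across CD11b- libraries. The difference was log2 0.09 with a 95% interval from -0.22 to 0.40 (edgeR adjusted p = 0.682).

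In complex IV, cytochrome c oxidase, 15 of 20 genes were tested, with 1 called higher (Cox5a) and 1 called lower (Cox6a1) in CD11b+. Either way 13.3% were called, beside 29.7% of all tested genes. Cox5a, a subunit facing the matrix, was at 125, 117, 169 and 168 CPM across CD11b+ libraries and at 83.8, 106, 86.2 and 126 CPM across CD11b- libraries. The groups overlapped, since CD11b- replicate 4 was as high as the lower CD11b+ libraries, and the 1.48-fold difference (log2 0.56, SE 0.19, edgeR adjusted p = 0.0468) was close to the threshold. In the annotation used here 12.8% of the exon bases of Cox5a overlap another gene model, Gm26631. The Cox5a call was lost in 10 of 16 alternative settings, among them without CD11b+ replicate 1, 3 or 4 or CD11b- replicate 1, 2 or 3 (edgeR adjusted p from 0.0522 to 0.128). The other 13 tested genes were not called. The subunits at the highest levels per length were Cox4i1 (600 and 704 CPM per kb), Cox8a (332 and 433) and Ndufa4 (339 and 392).

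The tissue-type isoforms of complex IV were nearly all of the ubiquitous kind. Cox4i1, the general form of subunit 4, was at 457, 457, 463 and 458 CPM across CD11b+ libraries and at 467, 565, 553 and 569 CPM across CD11b- libraries (log2 -0.19, 95% interval -0.48 to 0.09, edgeR adjusted p = 0.313). The CD11b+ libraries were closely alike. Its counterpart Cox4i2, the lung form that responds to low oxygen, had 14 counts over all CD11b+ libraries and 30 over all CD11b- libraries, at most 0.912 CPM in 1 library. Cox8a, the general form of subunit 8, was at 156 to 224 CPM across CD11b+ libraries and 193 to 292 CPM across CD11b- libraries. Cox8b, the heart and muscle form, had 0 counts in all 8 libraries, and the testis form Cox8c had 11 counts, all in CD11b- replicate 4. Cox7b stood at 67.0 to 74.1 CPM across CD11b+ libraries and 63.1 to 102 CPM across CD11b- libraries, whereas its relative Cox7b2 had 7 and 2 counts in the pooled libraries of each population. Ndufa4 was at 172 to 263 CPM across CD11b+ libraries and 190 to 270 CPM across CD11b- libraries, and Ndufa4l2, which is known as a target of the hypoxia response, had 14 counts, all in CD11b+ replicate 1.

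Subunit 6a was the isoform pair with the clearest separation. Cox6a1, the general form, was called lower in CD11b+, at 43.0, 48.2, 53.7 and 55.3 CPM against 66.4, 88.3, 65.5 and 114 CPM across CD11b- libraries. The groups did not overlap (1.62-fold, log2 -0.70, SE 0.21, edgeR adjusted p = 0.0319), and the call was lost in 8 of 16 alternative settings, among them without CD11b+ replicate 1, 2, 3 or 4 or CD11b- replicate 2 or 4 (edgeR adjusted p from 0.0591 to 0.0972). Cox6a2, the heart and skeletal muscle form, was at 0, 0.911, 1.27 and 0.688 CPM across CD11b+ libraries and at 3.47, 2.59, 4.24 and 11.7 CPM across CD11b- libraries. All CD11b- libraries were above all CD11b+ libraries, on pooled counts of 650 and 125. The fitted difference had a wide error (log2 -2.88, SE 1.31) and was not called by edgeR (adjusted p = 0.137, from 0.028 to 0.326 over the alternative settings), while DESeq2 called it (adjusted p = 0.028). Cox6a2 made up 1.35% ± 1.0 of the counts of the pair in CD11b+ and 5.80% ± 2.70 in CD11b- (SD, n = 4). Of 8 skeletal and heart muscle markers (Myh1, Myh4, Acta1, Ckm, Actn2, Tnnt3, Tnnt2 and Des), only Ckm passed the filter on low counts and it was not called. The summed level of the 8 was 0.355 to 4.25 CPM across CD11b+ libraries and 0 to 10.3 CPM across CD11b- libraries. Their part in the Cox6a2 value was not tested. In the annotation used here 10.3% of the exon bases of Cox6a2 overlap the integrin gene Itgad.

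Subunits 6b and 7a showed the same preponderance of the general forms without a call. Cox6b1 was at 114, 127, 148 and 185 CPM across CD11b+ libraries and at 159, 177, 145 and 221 CPM across CD11b- libraries. The testis form Cox6b2 was far lower, at 1.91, 4.89, 1.77 and 2.11 CPM and at 1.44, 5.57, 4.73 and 5.24 CPM. Cox7a2, the general form of subunit 7a, was at 214, 176, 162 and 193 CPM across CD11b+ libraries and at 203, 222, 163 and 182 CPM across CD11b- libraries. Its groups overlapped fully, with a difference of log2 0.00 and a 95% interval from -0.32 to 0.31. Cox7a2l, which takes part in joining complexes III and IV into supercomplexes, was at 83.6 to 102 CPM across CD11b+ libraries and 70.1 to 134 CPM across CD11b- libraries. The muscle form Cox7a1 was at 0.81 to 1.70 CPM across CD11b+ libraries and 0.154 to 1.86 CPM across CD11b- libraries. Its groups overlapped and its interval was too wide to give a sign (log2 0.87, 95% interval -1.58 to 3.32). EdgeR called neither of the muscle forms of subunits 6a and 7a.

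**Figure D4:**
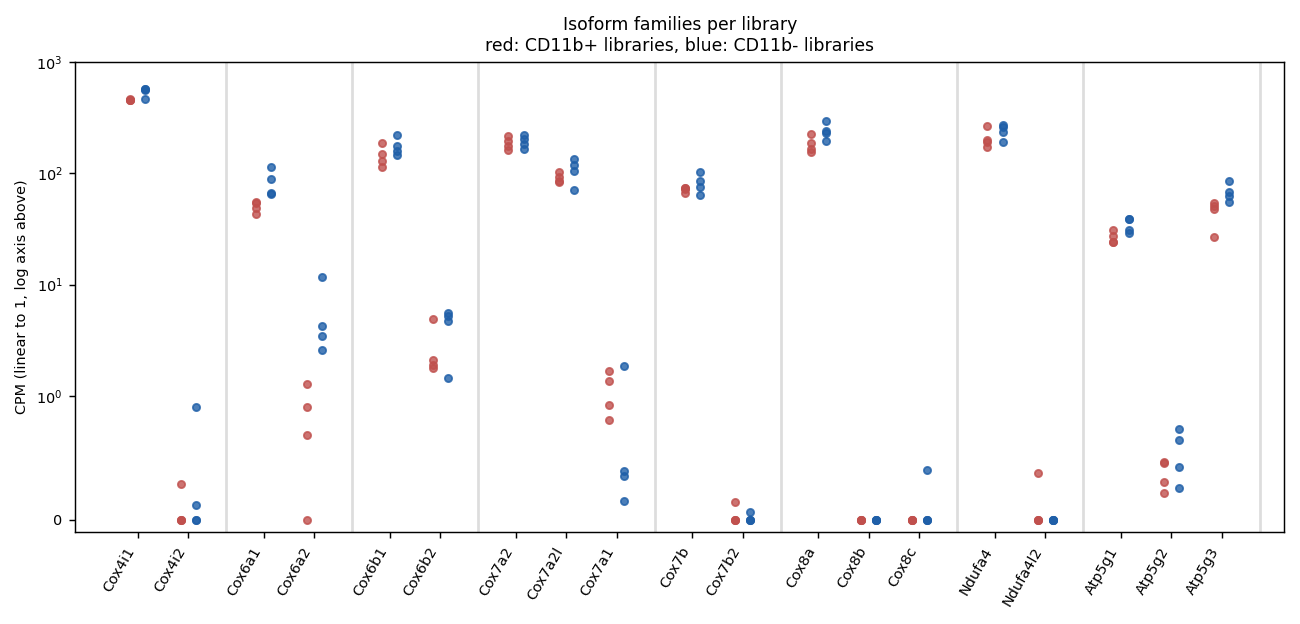
CPM per library of the isoform families (vertical axis linear up to 1 and logarithmic above; red: CD11b+ libraries, blue: CD11b- libraries; grey lines separate families). In each complex IV family 1 or 2 general forms stand between 43.0 and 569 CPM and the other forms at 11.7 CPM or less. In the Cox6a2 column the CD11b- libraries lie above the CD11b+ libraries.

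In complex V, the ATP synthase, edgeR called genes lower in CD11b+ and 0 higher. Of its 16 genes, all tested, 6 were called lower (37.5%, beside 15% of all tested genes) and 0 higher (beside 14.6%). The median log2 fold change of -0.40 stayed between -0.45 and -0.30 over the alternative settings. With totals taken without the 20 most abundant genes 4 were called lower and 1 higher, and with DESeq2 7 lower and 1 higher; the higher gene was Atp5j in both. The calls toward CD11b- fell to 3 without CD11b+ replicate 1 and to 3 without CD11b+ replicate 2. The F1 head, which carries the catalytic sites, and the central stalk, which turns with the rotor, together had 3 of 5 genes called lower. The genes counted here with the peripheral stalk had 2 of 5 and the membrane part 1 of 6.

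Atp5b, the catalytic beta subunit, was at 371, 336, 414 and 401 CPM across CD11b+ libraries and at 694, 715, 667 and 793 CPM across CD11b- libraries. The highest CD11b+ library was far below the lowest CD11b- library, at 1.84-fold (log2 -0.88, SE 0.12, edgeR adjusted p = 0.000443). Atp5a1, the alpha subunit with which beta alternates in the head, was also called lower, but less far (1.35-fold, log2 -0.44, SE 0.13, edgeR adjusted p = 0.0259). Its call was lost in 7 of 16 alternative settings, among them without CD11b+ replicate 1 or 2 or CD11b- replicate 2 or 3 (edgeR adjusted p from 0.0556 to 0.0827). Atp5d, the delta subunit of the central stalk, was at 79.4, 98.0, 106 and 134 CPM across CD11b+ libraries and at 144, 167, 165 and 211 CPM across CD11b- libraries. Its groups were separate by a narrow gap, at 1.60-fold (log2 -0.68, SE 0.19, edgeR adjusted p = 0.0221). The call was lost in 4 of 16 alternative settings, namely without CD11b+ replicate 1, 2 or 3 or CD11b- replicate 4 (edgeR adjusted p from 0.0567 to 0.0629). The gamma and epsilon subunits Atp5c1 and Atp5e were not called.

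Among the genes counted here with the peripheral stalk, which holds the head still, Atp5s and Atp5o were called. Atp5s entered by its symbol, and whether it is a structural part of the stalk was not examined. Atp5s, subunit s or coupling factor B, was the member with the largest called difference, at 14.2, 7.64, 8.13 and 11.7 CPM across CD11b+ libraries and at 37.2, 35.9, 21.9 and 35.5 CPM across CD11b- libraries. CD11b- replicate 3 was lower than its group but above every CD11b+ library, and the difference was 3.03-fold (log2 -1.60, SE 0.33, edgeR adjusted p = 0.00502). Atp5o is the oligomycin sensitivity conferring protein that joins stalk and head. As the mean of both populations, Atp5o had the highest level per length of complex V (305 CPM per kb in CD11b+ and 447 in CD11b-). It was at 261, 229, 251 and 280 CPM across CD11b+ libraries and at 375, 362, 386 and 377 CPM across CD11b- libraries, with both groups tight and apart (1.43-fold, log2 -0.52, SE 0.12, edgeR adjusted p = 0.00947). A near-identical gene copy (Gm5436) covers 76.7% of the Atp5o transcript, and 15.8% of its exon bases overlap Gm15976, so its counts are uncertain to that extent.

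In the membrane part, Atp5j2, subunit f, was called lower (1.40-fold, log2 -0.49, SE 0.14, edgeR adjusted p = 0.0219). The call was lost in 6 of 16 alternative settings, among them without CD11b+ replicate 1 or 2 or CD11b- replicate 3 (edgeR adjusted p from 0.057 to 0.0755). Subunit c, which forms the rotor ring, is encoded by 3 genes that give the same mature protein. Atp5g3 was at 26.9, 47.3, 50.7 and 54.1 CPM across CD11b+ libraries and at 67.7, 62.3, 55.7 and 84.5 CPM across CD11b- libraries, without overlap and without a call (log2 -0.55, SE 0.24, edgeR adjusted p = 0.128). Atp5g1 was at 23.9, 24.1, 27.0 and 31.0 CPM across CD11b+ libraries and at 31.0, 38.7, 39.1 and 29.3 CPM across CD11b- libraries (edgeR adjusted p = 0.342). Atp5g2 was listed at only 0.219 to 0.467 CPM across CD11b+ libraries and 0.255 to 0.736 CPM across CD11b- libraries, the lowest level per length of the 91 tested genes. Atp5g1 thus held 38.0% ± 6.14 of the counts of Atp5g1 and Atp5g3 together in CD11b+ and 34.2% ± 6.99 in CD11b- (SD, n = 4), shares that overlapped. A near-identical copy (Gm10175) covers 16.9% of the Atp5g2 transcript, and near-identical stretches of other genes cover 11.1% of that of Atp5g1. The counts of both are uncertain to that extent.

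Of the 12 assembly factors, 8 serve complex I and 4 complex II. EdgeR called 0 of them, beside 29.7% of all tested genes, with 2 at an unadjusted p under 0.05 (Sdhaf2 and Sdhaf4). DESeq2 called those 2 lower. The most abundant per length was Sdhaf4, at 34.0, 25.1, 18.6 and 28.7 CPM across CD11b+ libraries and at 61.0, 35.4, 39.0 and 49.8 CPM across CD11b- libraries. Its groups did not overlap, but the difference was not called (log2 -0.75, SE 0.27, edgeR adjusted p = 0.0651), except by DESeq2 and with a minimum of 10 CPM in 4 libraries (edgeR adjusted p = 0.0403).

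**Figure D5:**
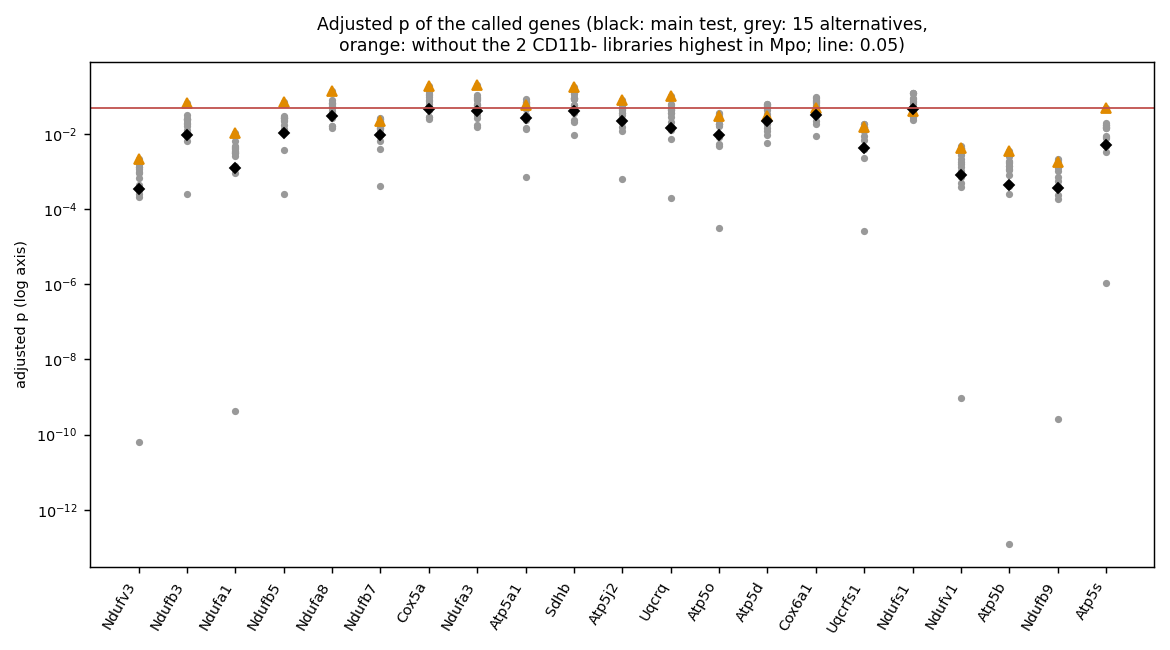
Adjusted p (log axis) of the 21 called genes in the test reported here (black), under 15 alternatives (grey) and without the CD11b- pair of libraries highest in Mpo (orange); the line marks 0.05. Ndufv3, Ndufa1, Ndufb7, Ndufb9, Ndufv1, Uqcrfs1, Atp5b, Atp5o and Atp5s lie under the line throughout.

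For 1 complex I subunit the deposited counts lay mostly in a copy of the gene. Ndufs5, a membrane arm subunit, was listed at only 0.956, 1.44, 1.69 and 1.82 CPM across CD11b+ libraries and at 1.05, 0.768, 1.01 and 1.27 CPM across CD11b- libraries. A processed pseudogene, BC002163, was at 16.7, 15.1, 18.1 and 18.4 CPM across CD11b+ libraries and at 13.2, 16.4, 15.7 and 18.0 CPM across CD11b- libraries. The copy held 92.1% ± 1.67 of the counts of the pair in CD11b+ and 93.9% ± 1.24 in CD11b- (SD, n = 4). The copy covers 46.9% of the Ndufs5 transcript. The first 300 coding bases of Ndufs5 and the matching bases of the copy differ at 2 positions (99.3% identity). They are shown because reads that lie within them can be told apart only at the letters in capitals. These letters mark the differences (GENCODE M21 sequences).
Ndufs5, coding bases 1 to 300: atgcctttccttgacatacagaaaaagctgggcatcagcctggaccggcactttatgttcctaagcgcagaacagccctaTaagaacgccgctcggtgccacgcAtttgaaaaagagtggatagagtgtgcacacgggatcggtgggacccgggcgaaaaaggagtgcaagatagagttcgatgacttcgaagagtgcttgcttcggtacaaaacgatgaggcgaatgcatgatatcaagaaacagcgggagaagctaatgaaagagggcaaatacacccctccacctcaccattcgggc
BC002163, matching bases: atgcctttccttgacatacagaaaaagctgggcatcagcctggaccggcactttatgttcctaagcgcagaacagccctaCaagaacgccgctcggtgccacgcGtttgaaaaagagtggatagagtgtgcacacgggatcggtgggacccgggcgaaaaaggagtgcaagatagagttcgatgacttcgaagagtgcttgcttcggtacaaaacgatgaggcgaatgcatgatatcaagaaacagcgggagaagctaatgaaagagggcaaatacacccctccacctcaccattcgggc
The level of Ndufs5 in these data is therefore uncertain, and it was not called (edgeR adjusted p = 0.696). The sum of both was 18.6 ± 1.74 CPM across CD11b+ libraries and 16.9 ± 2.09 CPM across CD11b- libraries. Cox7c, the complex IV subunit 7c, shared its counts with Gm12338 in a like way, with 57.1% ± 4.72 of the pair in the copy in CD11b+ and 44.3% ± 5.51 in CD11b-. In all, 12 of the 96 genes had a copy of at least 97% identity over at least 30% of their transcript, and Atp5o was the 1 called gene among them.

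The promoters of these genes were searched for 4 motifs on both strands, among them those of the factors known to regulate respiratory chain genes. RefSeq promoter sequences (GRCm38.p6, from 250 bases before to 50 after the start) were matched for 80 of the 96 genes. A gene with more than 1 listed start counted once if any held the motif. The NRF1 motif GCGCATGCG was in 10 of the 80 (12.5%), beside 1.95% of all 27025 genes with a promoter and 4.21% of those tested here. The motif CCGGAAG of ETS factors such as GABPA was in 20 (25%), beside 9.93% of all and 20.9% of tested genes. The YY1 motif AAGATGGCG was in 8 (10%), beside 1.64% of all and 3.77% of tested genes. The motif AGATAAG, bound by GATA factors such as the erythroid regulator GATA1, was in 0 of the 80, beside 3.50% of all and 2.54% of tested genes. No motif contains another, although the ETS and GATA motifs end in the letters AAG with which the YY1 motif begins. Of the called genes, all 8 called higher and 9 of the 13 called lower had a matched promoter. Ndufb9, Ndufs1, Uqcrq and Atp5a1 had none and were not searched. Among called genes, Cox6a1 had the NRF1 and the ETS motif, Ndufa8 the NRF1 motif, Sdhb and Ndufb7 the ETS motif and Atp5j2 the YY1 motif. Their promoters are shown 5′ to 3′ on the gene's strand because they are the called genes with a match, with the matched letters, of either strand, in capitals.
Cox6a1, chr5:115348909-115349208, minus strand: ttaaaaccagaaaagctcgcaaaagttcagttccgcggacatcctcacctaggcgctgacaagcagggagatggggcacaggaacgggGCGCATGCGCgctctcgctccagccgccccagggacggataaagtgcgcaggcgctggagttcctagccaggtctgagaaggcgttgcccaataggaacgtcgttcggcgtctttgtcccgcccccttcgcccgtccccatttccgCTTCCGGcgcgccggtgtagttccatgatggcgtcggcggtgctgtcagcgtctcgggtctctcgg
Ndufa8, chr2:36049289-36049588, minus strand: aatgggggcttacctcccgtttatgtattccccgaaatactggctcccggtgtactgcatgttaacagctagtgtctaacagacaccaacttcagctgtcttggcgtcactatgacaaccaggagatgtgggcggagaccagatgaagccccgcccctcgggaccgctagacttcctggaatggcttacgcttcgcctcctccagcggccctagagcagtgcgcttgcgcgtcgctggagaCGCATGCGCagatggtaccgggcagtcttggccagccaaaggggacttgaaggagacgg
Sdhb, chr4:140961021-140961320, plus strand: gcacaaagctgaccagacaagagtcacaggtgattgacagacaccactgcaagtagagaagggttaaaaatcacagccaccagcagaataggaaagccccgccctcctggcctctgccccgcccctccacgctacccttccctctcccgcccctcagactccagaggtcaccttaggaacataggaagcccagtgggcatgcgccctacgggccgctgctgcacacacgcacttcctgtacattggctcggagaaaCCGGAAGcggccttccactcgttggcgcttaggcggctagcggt
Ndufb7, chr8:83566508-83566807, plus strand: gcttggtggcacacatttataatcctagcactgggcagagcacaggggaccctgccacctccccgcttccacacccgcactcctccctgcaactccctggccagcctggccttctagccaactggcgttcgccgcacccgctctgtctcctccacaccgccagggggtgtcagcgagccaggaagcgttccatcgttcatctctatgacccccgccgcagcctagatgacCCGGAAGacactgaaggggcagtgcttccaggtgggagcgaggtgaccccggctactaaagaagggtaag
Atp5j2, chr5:145191492-145191791, minus strand: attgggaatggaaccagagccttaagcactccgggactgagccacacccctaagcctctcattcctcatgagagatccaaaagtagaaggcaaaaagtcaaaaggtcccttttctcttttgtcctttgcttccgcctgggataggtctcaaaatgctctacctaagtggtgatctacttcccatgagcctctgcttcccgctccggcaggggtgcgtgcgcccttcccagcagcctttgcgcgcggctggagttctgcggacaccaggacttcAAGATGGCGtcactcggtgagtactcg
Cox6a1, Sdhb and Atp5j2 were lower in CD11b+ and Ndufa8 and Ndufb7 were higher. Of the 10 genes with the NRF1 motif, 1 was called higher, 1 lower and 8 were not called. Of the 20 with the ETS motif, 1 was called higher, 2 lower and 17 were not called. Most genes with a match were thus not called, and 29.7% of all tested genes were.

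The regulators of these genes were measured in the same libraries. Nrf1, the factor of the NRF1 motif, was at 108, 126, 91.3 and 82.7 CPM across CD11b+ libraries and at 231, 235, 261 and 205 CPM across CD11b- libraries. It was lower in CD11b+ without overlap (2.23-fold, log2 -1.15, SE 0.18, edgeR adjusted p = 0.000998). Gabpa, Gabpb1, Yy1 and the mitochondrial transcription factor gene Tfam were not called (edgeR adjusted p from 0.126 to 0.49), and the coactivator gene Ppargc1a was below the filter on low counts, at 0 to 3.61 CPM. Of 17 tested genes of mitochondrial transcription and biogenesis, 3 were called higher and 1 lower. That is 17.6% and 5.88%, beside 14.6% and 15% of all tested genes. The higher ones were the hypoxia factor Hif1a (2.27-fold), the mitochondrial DNA polymerase Polg (2.09-fold) and the DNA-binding protein Ssbp1 (1.77-fold).

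The largest differences in the neighbouring pathways were among genes of uncoupling and ATP synthase inhibition. Of 4 tested genes of uncoupling and ATP synthase inhibition, 3 were called lower in CD11b+, beside 15% of all tested genes. Atpif1, the inhibitor of ATP hydrolysis by the synthase, was at 336, 262, 285 and 421 CPM across CD11b+ libraries and at 1899, 1827, 2164 and 2042 CPM across CD11b- libraries. The populations were far apart, at 5.95-fold (log2 -2.57, SE 0.19, edgeR adjusted p = 8.23e-06). Ucp2, an uncoupling protein family member of the inner membrane, was at 83.8, 89.4, 93.4 and 102 CPM across CD11b+ libraries and at 452, 553, 790 and 1110 CPM across CD11b- libraries (7.70-fold, log2 -2.94, SE 0.28, edgeR adjusted p = 4.14e-05). Slc25a4, an ADP/ATP carrier, was 2.42-fold lower (log2 -1.27, SE 0.20, edgeR adjusted p = 0.000971), and the other expressed carrier Slc25a5 was not called.

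The other related lists held calls in both directions or none. Beside their counts, 14.6% of all tested genes were called higher and 15% lower. Of 25 tested assembly factors of complexes IV and III, 2 were called higher and 1 lower. Sco1, a copper chaperone of complex IV, was at 86.7, 62.8, 45.7 and 46.2 CPM across CD11b+ libraries and at 17.8, 29.4, 25.9 and 9.90 CPM across CD11b- libraries (2.96-fold, log2 1.57, SE 0.39, edgeR adjusted p = 0.0126). Cox11, another copper factor of complex IV, had the opposite direction, at 24.9, 24.7, 14.9 and 16.8 CPM and at 88.2, 91.9, 89.1 and 73.3 CPM (4.10-fold, log2 -2.03, SE 0.24, edgeR adjusted p = 0.000172). Neither overlapped between the populations. Bcs1l, which inserts the Rieske protein Uqcrfs1 into complex III, was 2.51-fold higher in CD11b+ (log2 1.33, SE 0.36, edgeR adjusted p = 0.0187), while Uqcrfs1 itself was lower. Of 9 assembly factors of complexes I and V outside the symbol rule, edgeR called 0, with 1 (Acad9) at an unadjusted p under 0.05 and 0 by DESeq2.

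Of 16 genes of coenzyme Q synthesis and cytochrome c, Hccs, which attaches heme to cytochromes c, was called higher (1.76-fold, edgeR adjusted p = 0.0397) and Cyc1, the cytochrome c1 subunit of complex III, lower. Cyc1 lies outside the symbol rule and was at 302 to 361 CPM across CD11b+ libraries and 479 to 564 CPM across CD11b- libraries, 1.53-fold apart (log2 -0.61, SE 0.12, edgeR adjusted p = 0.00338). Of 17 tricarboxylic acid cycle and pyruvate dehydrogenase genes, which feed the chain with NADH and succinate, 2 were called higher and 4 lower. That is 11.8% and 23.5%, beside 14.6% and 15% of all tested genes. Higher were Suclg1 (1.61-fold) and Pdha1 (1.60-fold), and lower were Dlst (2.25-fold), Pdhx (2.11-fold), Ogdh (1.66-fold) and Idh3g (1.39-fold). Dlst and Ogdh encode components of the same enzyme, the oxoglutarate dehydrogenase. Of 16 genes of mitochondrial import, porins and chaperones, all of them parts of mitochondria in general, the porin gene Vdac2 was called higher (1.48-fold), and Vdac3 (1.44-fold) and the chaperone gene Hspa9 (1.43-fold) lower. Their summed level was 1166 to 1494 CPM across CD11b+ libraries and 1207 to 1559 CPM across CD11b- libraries, with overlapping groups.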

How the data were processed

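RNA of 8 libraries, 4 CD11b+ and 4 CD11b-, was sequenced from SmartSeq2 preparations, per the labels. The authors deposited whole-number counts per gene symbol for each library, in files whose names speak of FPKM, and a CPM table over all libraries. The deposited CPM values were the counts divided by each library's total, within 0.0005. The submitters' processing notes name TopHat2, HTSeq 0.10.0 and DESeq2 as tools and mm9 as the build, without saying what each did. Which annotation was counted, whether by strand, and how reads with several matches were handled is not given in the sources used here. Of 18817 rows, 27 are named by numbers in place of symbols and hold 0.205% to 0.514% of counts; they were left out of totals and tests.

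Levels are the deposited CPM. The counts were tested in edgeR 4.0.16 (R 4.3.3) with TMM scaling, filterByExpr (minimum count 10, minimum total 15), the quasi-likelihood test over 11965 genes without covariates and Benjamini-Hochberg adjustment at 0.05. The F statistic of that test gave the standard errors. Its p-values rest on the spread between replicates that the design text calls biological. The test was tried on simulated counts before use.

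The genes, lists and rules were chosen with earlier results of these data known. In every library were given the isoform families, up to 3 called genes with the largest fold per complex and direction with a mean of at least 20 CPM in the higher group, and the gene of each complex with the highest CPM per kb; from related lists, up to 3 called genes per direction. Lengths, exon overlaps and gene copies (BLAST, at least 97% identity over 100 bases) came from GENCODE M21 by symbol, which is of another build than the files, and promoters from RefSeq. The NRF1 and YY1 motifs were searched first in forms longer by a letter, which matched fewer promoters, and were shortened to keep the printed motif short, after those matches had been seen. Lengths are those of the principal transcript, chosen after merged exon lengths, inflated by retained introns, had been seen. Merged exons would have named Ndufa13, Cox8a and Atp5a1 in place of Ndufb7, Cox4i1 and Atp5o. The protein-coding sequences behind the isoforms, and Sco2, Pet117, Myl2 and Mb of the fixed lists, were not analysed here. The alternatives were DESeq2 1.42.0, RLE factors, no TMM, no filter, a minimum of 10 CPM in 4 libraries, the replicate number as a block, a 2-fold minimum and leaving out each library. Added after the data were seen were leaving out the CD11b- pair highest in Mpo and totals without the 20 most abundant genes.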

Additional observations from a re-analysis of the deposited data

Results flagged for a closer look

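In 14 of 90 groups of 4 libraries checked, 1 library stood apart from the other 3, by a gap over the range above Dixon's 95% critical value. In 5 of the 14 the other 3 libraries were at 0, which sets that ratio to its maximum whatever the value of the remaining library. Chance flags about 1 in 20 groups of continuous values, a rate that does not apply to those 5. Among called genes, Atp5s was at 21.9 CPM in CD11b- replicate 3 against 35.5 to 37.2 in the others, Uqcrq at 182 CPM in the same library against 233 to 237, and Sdhb at 289 CPM there against 341 to 350. Ndufb5 was at 106 CPM in CD11b+ replicate 4 against 91.3 to 93.4. Cox4i1 was at 463.2 CPM in CD11b+ replicate 3 against 457.1 to 457.8, a gap made visible by how closely the others lay, and at 466.6 CPM in CD11b- replicate 1 against 553.2 to 569.1.

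The other 8 were isoforms of low level. Cox6b2 was at 4.89 CPM in CD11b+ replicate 2, Cox7a1 at 1.86 CPM in CD11b- replicate 4, Cox4i2 at 0.292 CPM in CD11b+ replicate 3 and 0.912 CPM in CD11b- replicate 1, Cox7b2 at 0.146 CPM in CD11b+ replicate 3 and 0.061 CPM in CD11b- replicate 3, Cox8c at 0.401 CPM in CD11b- replicate 4 and Ndufa4l2 at 0.382 CPM in CD11b+ replicate 1. Some of these rest on a few counts, and why single libraries stood apart was not tested.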

How the results depend on the processing

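Of the 21 called genes 9 were called under all 16 alternatives other than the 2-fold minimum, Ndufv3, Ndufa1 and Ndufb7 higher and Ndufb9, Ndufv1, Uqcrfs1, Atp5b, Atp5o and Atp5s lower in CD11b+. The other 12 kept their sign in each alternative. Leaving out 1 library in turn gave 5 to 8 genes called higher and 6 to 11 called lower. Without the CD11b- pair highest in Mpo 4 were higher and 9 lower, of which 12 were among the 21. DESeq2 called 20 lower and 12 higher, including all 21. Without a filter 8 were lower and 6 higher. With totals that leave out the 20 most abundant genes 7 were lower and 12 higher, that is 63.2% of calls higher beside 38.1% in the test reported. With a fold of at least 2 asked for, 1 was higher and 2 lower. The cause of these shifts was not tested.

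The log2 fold change of Cox7a2, near 0, turned positive in 7 settings. It was 0.013 without a filter, 0.130 without the CD11b- pair, 0.0999 with totals that leave out the 20 most abundant genes, and between -0.0636 and 0.0774 with 1 library left out. That of Cox7a2l was 0.0829 without the CD11b- pair. The median over subunits of log2(CPM + 1) in place of the sum moved complex II from -0.28 to -0.01, complex III from -0.12 to -0.35 and complex V from -0.40 to -0.17, and turned complex I from -0.08 to 0.04.

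Over all tested genes, deviations from the group mean correlated at 0.0022 to 0.043 between same-numbered libraries of the populations. Libraries of different numbers were not compared, so whether the replicate numbers pair the libraries was not tested. With the replicate number as a block 7 were called higher and 12 lower, against 8 and 13 without it. At these depths the isoforms near 0 rest on few counts, and their folds are not read.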
